A study of Mus musculus with 36 samples.

Results

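At embryonic day 13.5 (E13.5), the atrial chambers of the mouse heart were compared with its ventricles, on 3 arrays of each. These are 6 of the 36 arrays of a study of normal heart development in C57BL/6 embryos, an inbred laboratory strain with no engineered allele and no treatment named in the labels. The members were chosen by sample title and source: the atrial samples are labelled as atrial chamber and the ventricular samples as both ventricles, with no separation of left from right. The labels say that hearts came from timed matings and that atria were cut from ventricles from E12.5 on. They do not say how many embryos went into a sample or whether the 3 samples of a chamber came from separate litters. The p-values therefore measure a spread between samples that may be technical. The other 30 arrays hold the same 2 chambers at 4 other ages between E12.5 and E18.5, with 3 arrays per chamber and age, and the whole heart region on 2 earlier days.

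Atrial and ventricular muscle arise from different progenitors and keep separate gene programmes. In the mouse, the COUP-TF nuclear receptors and the T-box factor Tbx5 act in the atrial programme, while Iroquois factors and the Hairy-related repressor Hey2 act in the ventricular one. At the stage studied the septa between the chambers are closing, the ventricular wall is compacting, and the sinus venosus, which carries the pacemaker, is being taken into the right atrium. An atrial sample cut from such a heart can therefore also hold venous, septal and pericardial tissue, and a ventricular sample can hold valve and outflow tissue.

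Each value is an intensity, the brightness assigned to a probe set (a group of short probes for 1 transcript), with each array already brought to the same trimmed mean. Differences are atrium minus ventricle on the scale of log2(intensity + 17), given with their standard error (SE) and with limma's p-value adjusted by the Benjamini-Hochberg method over all 27256 probe sets tested. A probe set is called when that adjusted p is below 0.05. Because 17 is added, fold changes of dim probe sets are understated, and levels of different genes are not compared here. The precision is limited by the number of arrays, which is 3 for each chamber.

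The 6 arrays shared a trimmed mean, but every atrial array had a higher median than every ventricular one. Their median intensities were between 168.1 and 194.2 in the atria and between 152.8 and 165.1 in the ventricles. Correlations of log2 values within a chamber were between 0.968 and 0.981, and between any 2 arrays of the series they were between 0.916 and 0.981. The 14 ventricular chamber genes summed to 19072, 21117 and 16247 on the 3 atrial arrays, against 94076, 88424 and 85751 on the ventricular arrays. That list was chosen with earlier results of these data known, so the sums are not an independent check of the dissection. Atrial array 3 read highest of the 6 arrays for 8 of 10 measured genes of lung and foregut lining. Sftpc, which encodes surfactant protein C of lung epithelium, read 124, 112 and 1745 in the atria, against 115, 70.6 and 98.8 in the ventricles. Foxa1, a forkhead factor of endoderm, read 3.3, 26.9 and 484.5 in the atria, against 10.7, 9.1 and 6.6 in the ventricles. Epcam, an epithelial adhesion gene, read 745, 1091 and 439 in the atria, against 856, 742 and 1215 in the ventricles, lowest on that array, and Tmprss2, an epithelial protease gene, was highest on atrial array 2. None of the 10 passed the test at E13.5. Results that rest on atrial array 3 are given with and without it.

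Between the chambers, 3310 of 27256 probe sets were called (12.1%), 1600 of them higher in the atrium (5.87%) and 1710 lower (6.27%). The difference was 2-fold or more for 423 of the higher probe sets (1.55%) and for 318 of the lower ones (1.17%). With 1 probe set taken for each of 12983 genes, 871 genes were higher (6.71%) and 1010 lower (7.78%), so that 1881 differed (14.5%). The difference reached 2-fold for 211 of the higher genes (1.63%) and 179 of the lower genes (1.38%). The plot of all genes shows that the largest differences in either direction lay far outside the main cloud, and that the called genes spread over nearly the whole range of levels. The median difference was 0.02 over all genes. When each array was centred on its median the median difference of the probe sets was -0.10, compared with 0.04 without centring, and the calls became 753 higher and 2197 lower, so that 25.5% of calls were higher with centring, compared with 48.3% without it. Small differences in either direction therefore depend on the scaling. Without ventricular array 1 the calls numbered 1986, with 969 higher and 1017 lower, and without atrial array 2 the higher calls numbered 1021.

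**Figure D1:**
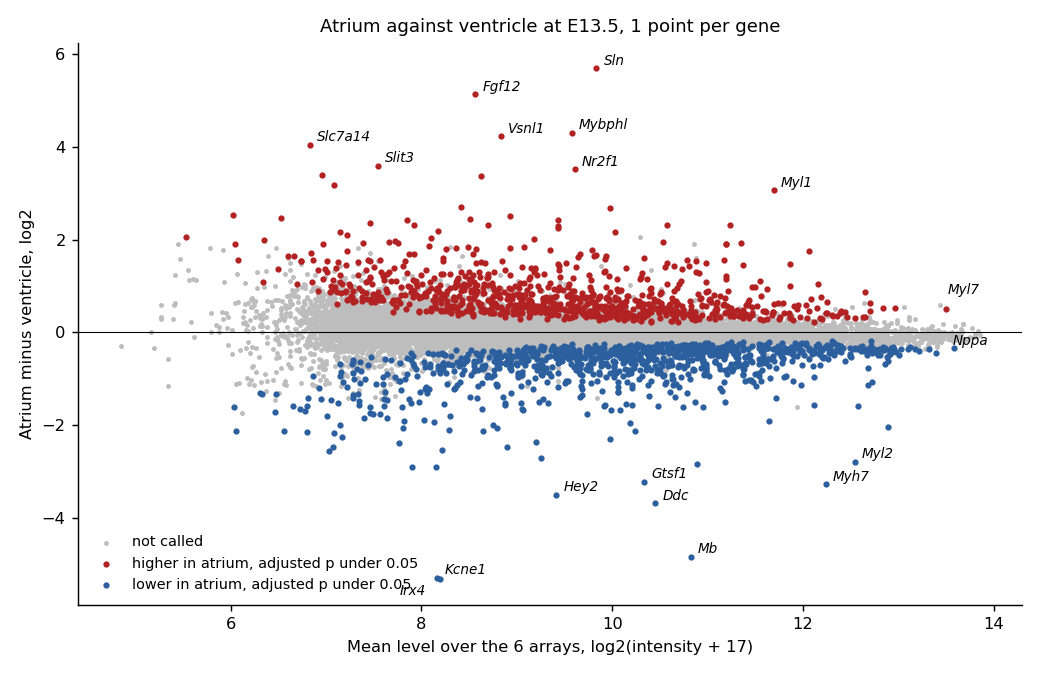
Atrium minus ventricle at E13.5 (vertical axis, log2) against the mean level over the 6 arrays (horizontal axis, log2 of intensity + 17), with 1 point per gene and 12983 genes. Red points are the 871 genes called higher in the atrium, blue points the 1010 called lower, and grey points were not called; Sln at 5.70 and Irx4 at -5.33 mark the ends of the range.

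The largest differences included genes of muscle contraction, excitability and patterning, beside others given below. Sln encodes sarcolipin, a small inhibitor of the calcium pump of the sarcoplasmic reticulum. It read 4543, 10711 and 5780.5 in the atria, against 567, 35.0 and 50.0 in the ventricles. The highest ventricular value, on array 1, was still far below the lowest atrial one. The difference was 5.70 ± 0.99 on the log2 scale, 51.9-fold, with an adjusted p of 0.00023. It was 6.80 without ventricular array 1 and 5.05 without ventricular array 2, and called in both fits. A second probe set annotated to Sln differed by 0.86 and was not called, and the mean of the 2 differed by 3.28. Fgf12, an intracellular relative of the fibroblast growth factors that binds sodium channels, read 2141, 2456 and 2092.5 in the atria, against 73.2, 31.6 and 42.7 in the ventricles, a difference of 5.13 ± 0.58 (adjusted p = 7.9e-07). Both of its other measured probe sets were called in the same direction, at 2.73 and 4.61. Mybphl, a myosin-binding protein of cardiac muscle, read 3354, 3893 and 2933 in the atria, against 119, 205 and 149 in the ventricles (4.31 ± 0.37, adjusted p = 6.2e-09). Its atrial values all lay far above its ventricular ones, as in the plot of values by array.

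Several of the 20 largest increases were of genes with roles outside contraction. Vsnl1 encodes visinin-like 1, a neuronal calcium sensor, and read 2296, 1962 and 1670.4 in the atria, against 118.5, 60.2 and 95.1 in the ventricles. The groups lay far apart, with a difference of 4.23 ± 0.31 (adjusted p = 8.1e-10). Slc7a14, of the amino acid transporter family, read 577, 439.7 and 346 in the atria, against 8.7, 14.9 and 9.8 in the ventricles, where it was close to the bottom of the scale. Slit3, a secreted guidance ligand for Robo receptors, read 731.5, 543 and 637 in the atria, against 41.0, 34.6 and 34.7 in the ventricles (3.60 ± 0.33, adjusted p = 1.7e-08). Lin7a, a scaffold protein of cell junctions, differed by 3.39 ± 0.40, and the LIM domain protein gene Pdlim4 by 3.18 ± 0.35. Ryr3, a calcium release channel (2.51 ± 0.37), the zinc transporter gene Tmem163 (2.68 ± 0.33), the lipoprotein-associated phospholipase gene Pla2g7 (2.71 ± 0.60) and the ephrin receptor gene Epha4 (2.41 ± 0.28) followed. Dnah1, a dynein heavy chain known from cilia and flagella, read 222, 267 and 133 in the atria, against 19.0, 10.3 and 44.5 in the ventricles (2.47 ± 0.51, adjusted p = 0.0014). The groups of each of these genes did not overlap because the 20 were chosen from called genes without overlap. Of all genes, 14.1% were called with groups that did not overlap, and 35.7% had such groups, called or not. Each of the 20 was also called when any 1 of the 6 arrays was left out.

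Adh1 was among the 20 but uneven within the atria. This alcohol dehydrogenase, which can oxidise retinol, read 368, 671 and 2337 in the atria, against 166.5, 128 and 127 in the ventricles, and its highest value lay on atrial array 3, the array with lung genes. It was called without that array too.

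**Figure D2:**
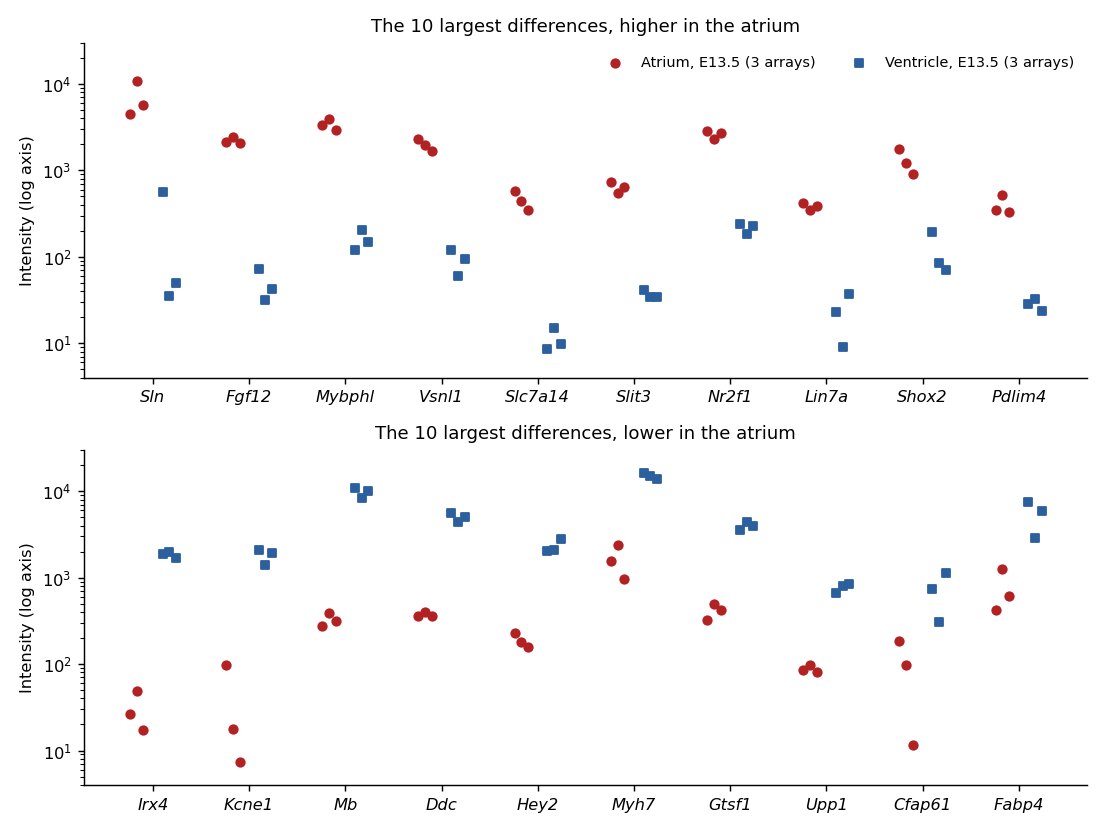
Intensities on single arrays (log axis) for the 10 genes with the largest called difference in each direction whose groups do not overlap. Each gene has 3 atrial arrays (red circles, left) and 3 ventricular arrays (blue squares, right); Sln in the atria lies between 4543 and 10711, and Irx4 in the atria between 17.3 and 49.2.

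The atrial and ventricular chamber lists drew on heart biology but were chosen with earlier results of these data known, so their counts are descriptions. Counts of all lists can be read beside the 6.71% of all genes called higher and the 7.78% called lower. All 16 atrial chamber genes were measured, and 11 were higher in the atrium and none lower (median 1.77, against 0.02 for all genes). The COUP-TF receptor genes were among them. Nr2f1 read 2889, 2316.5 and 2688 in the atria, against 238.5, 181.5 and 225 in the ventricles (3.52 ± 0.29, adjusted p = 3.3e-09). Nr2f2, its close relative in atrial muscle and veins, read 1692, 1459 and 1679 in the atria, against 506, 508.5 and 467 in the ventricles (1.67 ± 0.15). Both had narrow groups, and the smaller of the 2 differences was Nr2f2's. Tbx5 read 1493, 1565 and 1270.0 in the atria, against 427, 506 and 378 in the ventricles (1.69 ± 0.25, adjusted p = 2.9e-05). The subunits of the acetylcholine-gated potassium channel that slows the atrial beat were both higher: Kcnj3 differed by 1.84 ± 0.25 and Kcnj5 by 1.13 ± 0.18. Dkk3, a secreted Dickkopf family member (2.32 ± 0.26), the lipid transfer protein gene Stard10 (2.32 ± 0.18) and Angpt1, a ligand of the Tie2 receptor (1.93 ± 0.29), completed the set with Sln, Fgf12 and Mybphl. The 11 calls were also made without any 1 array.

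The 5 atrial chamber genes that did not pass included well-known atrial markers. Nppa, which encodes atrial natriuretic peptide, read 13437, 15332 and 13234 in the atria, against 11450.4, 12753.5 and 12722 in the ventricles, a difference of 0.18 ± 0.19 (adjusted p = 0.59). The regulatory light chain Myl7 read 13117, 14887 and 13072 in the atria, against 8273, 9965 and 8956 in the ventricles (0.60 ± 0.21, adjusted p = 0.068), and the essential light chain Myl4 13679, 15684 and 14051 in the atria, against 13199, 13740.0 and 13727 in the ventricles (0.09 ± 0.15, adjusted p = 0.75). The 3 atrial values of Myl7 all lay above the ventricular ones, yet its SE was too large for a call in the fit over 36 arrays, while quantile normalization gave an adjusted p of 0.0036, array weights 0.030 and a fit of the 6 arrays alone 0.0023. The atrial values of these 3 genes lay between 13072 and 15684, where the highest value of any probe set was between 14463 and 16775 on the 6 arrays. Gja5, the connexin of atrial and conduction muscle, read 769, 750.0 and 714 in the atria, against 249, 438.5 and 342 in the ventricles (1.11 ± 0.43, adjusted p = 0.088), with groups that did not overlap but no call. It was called with array weights (adjusted p = 0.020) and in a fit of the 6 arrays alone (adjusted p = 0.0057). The ultrarapid potassium channel gene Kcna5 differed by 0.36 ± 0.30 (adjusted p = 0.49).

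Every one of 14 ventricular chamber genes was lower in the atrium (median -2.12). Irx4, an Iroquois homeobox factor of ventricular muscle, read 26.3, 49.2 and 17.3 in the atria, against 1891, 1964.5 and 1675 in the ventricles. The atrial values were at the bottom of the scale and the ventricular values close together. The difference was -5.33 ± 0.82 (adjusted p = 5.2e-05). Its SE pools the spread of all groups, and the atrial values of Irx4 varied more at the other ages, as given below. Kcne1, an accessory subunit of the slow delayed rectifier potassium channel, read 97.3, 17.8 and 7.3 in the atria, against 2099, 1396 and 1940.4 in the ventricles (-5.30 ± 0.90, adjusted p = 0.00018). Mb, which encodes the oxygen store myoglobin, read 272, 389 and 311 in the atria, against 10839.9, 8369 and 10086 in the ventricles. It was 28.8-fold lower (-4.85 ± 0.73, adjusted p = 3.8e-05). Hey2 read 226.5, 180.0 and 157 in the atria, against 2015, 2109.6 and 2793 in the ventricles (-3.50 ± 0.55, adjusted p = 6.4e-05), a separation seen on every array.

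The contractile members of the ventricular list were abundant on the ventricular arrays and far lower on the atrial ones. Myh7, the slow myosin heavy chain that is the main form of the fetal mouse ventricle, read 1567, 2362 and 969.8 in the atria, against 16281, 15059.5 and 13879.7 in the ventricles (-3.28 ± 0.57, adjusted p = 0.00024). Myl2, the ventricular regulatory light chain, read 2383, 4117 and 1149.8 in the atria, against 16775, 15815 and 14554 in the ventricles (-2.80 ± 0.77, adjusted p = 0.016). Its atrial values were the more scattered ones, and its call was lost when either atrial array 3 or ventricular array 1 was left out (adjusted p = 0.090 and 0.052). Myl3, the ventricular essential light chain, read 4409, 3508 and 3317 in the atria, against 16736, 14794.5 and 14703 in the ventricles (-2.04 ± 0.43). The ventricular values of Myl2, Myl3 and Myh7 lay near the top of the scale. The transcription factor genes Irx2 (-2.14 ± 0.31), Irx1 (-2.11 ± 0.42) and Hand1 (-1.57 ± 0.29), the limb-bud and heart cofactor gene Lbh (-1.57 ± 0.27) and Cited1, a transcriptional cofactor of the trabecular wall (-0.95 ± 0.20), were lower too. Between 13 and 14 of the list were lower when any 1 array was left out.

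Genes less tied to muscle also marked the ventricles. Ddc, the aromatic amino acid decarboxylase that makes dopamine and serotonin and is imprinted in the mouse heart, read 360.3, 402 and 357 in the atria, against 5655, 4435 and 5016 in the ventricles (-3.69 ± 0.54, adjusted p = 2.4e-05). Gtsf1, known for transposon silencing in the mouse germ line, read 321, 498 and 418 in the atria, against 3582, 4339.7 and 3925 in the ventricles. The atrial values were far below the ventricular ones, and the difference was -3.22 ± 0.41 (adjusted p = 3.5e-06), while a second probe set annotated to Gtsf1 differed by -0.77 without a call. Uridine phosphorylase, Upp1, read 85.3, 96.4 and 80.3 in the atria, against 656, 801 and 849 in the ventricles (-2.91 ± 0.43). The phosphodiesterase gene Mpped2 (-2.71 ± 0.37), Prdm16, a zinc finger factor of compact ventricular muscle (-2.55 ± 0.49), the ankyrin repeat and SOCS box gene Asb11 (-2.36 ± 0.49), Septin6, of the septin cytoskeleton (-2.31 ± 0.31), and Kcne3, another potassium channel accessory subunit (-2.26 ± 0.35), were also among the 20 largest decreases, as were Depp1 (-2.48 ± 0.53) and Gm13889 (-2.48 ± 0.57). Of those 20, 5 lost their call when 1 array was left out: Myl2 as above, and Cfap61, Fabp4, Wif1 and B3galt5. Cfap61 (-2.91 ± 0.95, adjusted p = 0.043) was lost without atrial array 2 or 3 (adjusted p = 0.074 and 0.22) or ventricular array 1 or 3 (adjusted p = 0.12 and 0.16). It was not called either with 68 added in place of 17, without the filter, without the intensity trend or with the replicate block (adjusted p between 0.052 and 0.091), and the mean of its probe sets differed by -1.41 (adjusted p = 0.054). The Wnt inhibitor gene Wif1 (-2.57 ± 0.65) was lost without atrial array 1 or 2 (adjusted p = 0.052 and 0.051), and the glycosyltransferase gene B3galt5 (-2.40 ± 0.58) without atrial array 1 (adjusted p = 0.076).

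The promoter windows of the 3 genes with the largest difference in each direction that have a single start in the RefSeq table and lie in it are shown here as examples from both ends of the range. Some other genes, such as Fgf12 and Mb, differed by more. Each window is the 250 bases before the start of the gene on the GRCm38.p6 build, 5′ to 3′ on the gene's strand. Capitals mark matches, on either strand, to 5 motifs. Among them are AGGTGT, a T-box motif, AGATAA, which factors of the GATA family bind, and CTANNNNTAG, a loose MEF2 motif with any base at N. Also marked are AGGTCA, which nuclear receptors bind, and CACGTG, an E-box of the kind that Hey factors bind. Mybphl lies at chr3:108364661-108364910 on the plus strand, Slc7a14 at chr3:31310320-31310569 on the minus strand and Slit3 at chr11:35121206-35121455 on the plus strand, all higher in the atrium. Lower in the atrium were Irx4 at chr13:73260247-73260496 on the plus strand, Hey2 at chr10:30842784-30843033 on the minus strand and Gtsf1 at chr15:103430428-103430677 on the minus strand.
Mybphl: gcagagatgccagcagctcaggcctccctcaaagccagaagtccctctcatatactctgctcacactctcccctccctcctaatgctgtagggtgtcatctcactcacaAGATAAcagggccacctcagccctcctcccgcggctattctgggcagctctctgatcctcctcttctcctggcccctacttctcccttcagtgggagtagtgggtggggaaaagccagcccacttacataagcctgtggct
Slc7a14: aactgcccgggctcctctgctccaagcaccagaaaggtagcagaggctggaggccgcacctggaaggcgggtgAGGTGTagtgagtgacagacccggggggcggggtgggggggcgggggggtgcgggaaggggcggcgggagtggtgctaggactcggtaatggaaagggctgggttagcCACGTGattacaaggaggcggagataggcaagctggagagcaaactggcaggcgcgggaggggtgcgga
Slit3: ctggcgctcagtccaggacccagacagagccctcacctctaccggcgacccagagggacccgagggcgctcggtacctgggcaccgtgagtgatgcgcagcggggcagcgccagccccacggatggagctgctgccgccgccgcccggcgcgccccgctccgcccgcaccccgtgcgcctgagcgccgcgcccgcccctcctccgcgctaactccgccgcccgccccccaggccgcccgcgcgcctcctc
Irx4: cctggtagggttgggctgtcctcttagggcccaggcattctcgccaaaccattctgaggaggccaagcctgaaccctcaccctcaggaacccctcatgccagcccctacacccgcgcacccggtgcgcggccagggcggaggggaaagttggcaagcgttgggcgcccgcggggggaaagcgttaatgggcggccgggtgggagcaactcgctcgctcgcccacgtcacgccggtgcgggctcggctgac
Hey2: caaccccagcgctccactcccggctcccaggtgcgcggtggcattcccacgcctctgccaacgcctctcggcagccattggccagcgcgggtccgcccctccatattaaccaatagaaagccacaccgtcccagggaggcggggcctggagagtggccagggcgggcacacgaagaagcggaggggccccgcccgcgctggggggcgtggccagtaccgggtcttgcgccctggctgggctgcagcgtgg
Gtsf1: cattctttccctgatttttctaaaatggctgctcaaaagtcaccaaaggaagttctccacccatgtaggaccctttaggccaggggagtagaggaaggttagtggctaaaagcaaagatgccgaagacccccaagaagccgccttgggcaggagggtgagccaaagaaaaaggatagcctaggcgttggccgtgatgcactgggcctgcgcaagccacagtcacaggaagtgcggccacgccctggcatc
The Mybphl window holds 1 GATA match, and the Slc7a14 window 1 T-box match and 1 CACGTG. The other 4 windows hold none of the 5 motifs in these 250 bases. Of all 32851 windows of the table, 11.8% hold the T-box motif, 9.99% the GATA site, 3.20% CTANNNNTAG, 14.02% the nuclear receptor motif and 6.02% CACGTG. Of the 211 genes at least 2-fold higher in the atrium, 131 had a single window. Of those windows, 16.03% held the T-box motif, 8.40% the GATA site, 1.53% CTANNNNTAG, 9.92% the nuclear receptor motif and 7.63% CACGTG. Of the 179 genes at least 2-fold lower, 111 had a single window, with 9.91%, 3.60%, 4.50%, 7.21% and 7.21% in the same order of motifs. Among the 8333 tested genes with a single window the shares were 9.73%, 5.89%, 2.87%, 10.4% and 8.45%. These shares are a description of letters in the windows and were not tested.

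Genes of the sinus venosus, the sinus node and the pulmonary vein were partly higher in the atrium. Of 13 measured, 5 were higher and none lower (median 0.39), with the same 5 calls in number without any 1 array. Shox2, a homeobox factor required for the sinus node in the mouse, read 1747, 1221 and 907 in the atria, against 192, 85.2 and 69.6 in the ventricles (3.36 ± 0.43, adjusted p = 3.9e-06). Isl1, a LIM homeobox factor that heart progenitors and later the node express, read 205, 101 and 129 in the atria, against 13.6, 8.3 and 8.8 in the ventricles (2.53 ± 0.52, adjusted p = 0.0013). Its ventricular values were at the bottom of the scale, and each atrial value lay above all of them. Vsnl1, given above, is also a gene of the node, and the ligand Bmp4 (1.39 ± 0.26) and the G protein regulator Rgs6 (1.26 ± 0.28) were the other two. Tbx18, a T-box factor of the sinus horns that is also expressed in epicardium, read 3519.6, 2195 and 2291.5 in the atria, against 2212, 2213 and 1905.5 in the ventricles (0.31 ± 0.17, adjusted p = 0.26). Tbx3, the repressor of the conduction system, read 295.5, 205 and 299.9 in the atria, against 253, 208 and 143 in the ventricles (0.39 ± 0.29, adjusted p = 0.42). The groups of both genes overlapped, and neither passed. Nor did Smoc2 (0.43), Cacna1d (0.21), Id2 (0.17), Cntn2 (0.05), Cacna1g (-0.29) or the pacemaker channel gene Hcn2 (-0.79).

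Sarcomere genes moved in both directions, with 6 of 34 higher and 8 lower in the atrium (median -0.06). Myl1, a light chain of fast skeletal muscle that is also made in the embryonic atrium, read 9612, 9655 and 9479.9 in the atria, against 949.8, 1724 and 878 in the ventricles. The 3 atrial values were nearly equal, and the difference was 3.07 ± 0.41 (adjusted p = 8.4e-06). The beta-tropomyosin gene Tpm2 read 4238, 4893 and 3902 in the atria, against 2406, 2520.4 and 1907 in the ventricles (0.93 ± 0.21, adjusted p = 0.0034). The fast heavy chain Myh6, which is the main form of the atrium, read 13382, 14469 and 13568 in the atria, against 9688, 9171 and 10393 in the ventricles, a difference of 0.50 ± 0.15 (adjusted p = 0.024) that was lost with median centring (adjusted p = 0.18) and without atrial array 2 or 3 or ventricular array 1 or 2 (adjusted p = 0.087, 0.056, 0.070 and 0.091). On the ventricular side, beside the myosins named above, were Z-disc genes: Actn2 (-0.68 ± 0.13), Tcap (-0.77 ± 0.16) and Myoz2 (-1.05 ± 0.18), and the minor heavy chain Myh7b (-0.93 ± 0.18). Myoz2 read 2865, 2929.6 and 2185 in the atria, against 5790.4, 4879 and 5766 in the ventricles, and every atrial value lay below every ventricular one.

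Calcium handling and ion channels showed a few strong differences among many genes that did not pass. Of 20 calcium genes, 4 were higher and 3 lower (median -0.04). Cacna2d2, an accessory subunit of voltage-gated calcium channels, read 4683, 4476 and 3984 in the atria, against 1502.5, 1994 and 1345 in the ventricles (1.45 ± 0.19, adjusted p = 4.3e-06). Besides Sln, it was the increase that also passed without any 1 array. The other 2, Itpr2 and Casq1, made the count 2 without atrial array 3, ventricular array 1 or ventricular array 3. Among the lower genes, the pore subunit of the cardiac calcium channel, Cacna1c, read 1239.8, 1554 and 1249.7 in the atria, against 2109, 1855 and 1791 in the ventricles (-0.51 ± 0.13, adjusted p = 0.0088), and lost its call without ventricular array 1 (adjusted p = 0.061), where 1 gene remained lower in place of 3. With median centring 2 were higher and 6 lower. Of 18 potassium, sodium and pacemaker channel genes, 3 were higher, Fgf12, Kcnj3 and Kcnj5, and 2 lower, Kcne1 and Kcnh2. Over all genes the shares were 6.71% higher and 7.78% lower. Kcnh2, of the rapid delayed rectifier, read 1479, 1318 and 1169 in the atria, against 1858, 1939 and 1586 in the ventricles (-0.44 ± 0.11), and was not called without atrial array 3 or ventricular array 1 or 2 (adjusted p = 0.078, 0.051 and 0.063). With median centring 4 channel genes were lower.

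Junction genes of the intercalated disc, which joins heart muscle cells, were lower in the atrium or did not pass. Of 12, 5 were lower and none higher (median -0.27). Pkp2, a desmosomal plakophilin, read 3974, 3843 and 3867 in the atria, against 5679.9, 5479 and 5681 in the ventricles (-0.53 ± 0.09, adjusted p = 0.00034). N-cadherin, Cdh2, read 5844.5, 5401 and 5297 in the atria, against 7209, 6964 and 7535 in the ventricles (-0.39 ± 0.10, adjusted p = 0.011), and connexin 43, Gja1, 5915, 6528 and 6334 in the atria, against 9421, 8733 and 9105 in the ventricles (-0.54 ± 0.16, adjusted p = 0.023). The groups of all 3 were separate, but the differences were small. Cdh2 was not called without ventricular array 3 (adjusted p = 0.052), and Gja1 not without atrial array 1 or 3 or ventricular array 1 or 3 (adjusted p = 0.077, 0.055, 0.079 and 0.061). The list's count was 2 without atrial array 1, ventricular array 1 or ventricular array 3.

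Among 35 cardiac transcription factors, 7 were higher and 7 lower, while the median stayed near 0 (-0.05). The 2 Hairy-related factors went opposite ways. Hey1, the atrial one in the mouse, read 1055, 823 and 907 in the atria, against 554, 361 and 404 in the ventricles (1.07 ± 0.16, adjusted p = 3.0e-05), whereas Hey2 was lower as given above. Of the 6 Iroquois genes, Irx1, Irx2, Irx3 and Irx4 were lower. Irx3, of trabecular and conduction muscle, read 899.6, 855 and 1647 in the atria, against 2464, 2853 and 2201 in the ventricles (-1.19 ± 0.26, adjusted p = 0.0025). Irx5 (0.09 ± 0.13, adjusted p = 0.74) and Irx6 (0.66 ± 0.27, adjusted p = 0.11) did not pass, and with array weights Irx6 was called higher (adjusted p = 0.040). The atrial value of Irx3 was highest on array 3, as were those of Irx1 and Irx2, which read 92.2, 69.5 and 341 and 121, 149.5 and 284 in the atria. Myocd, the myocardin coactivator of muscle genes, read 811, 738 and 816 in the atria, against 1396, 1223 and 1376 in the ventricles (-0.74 ± 0.18, adjusted p = 0.0066). Gata5, a GATA factor of endocardium, read 473, 473 and 546 in the atria, against 199, 329 and 258 in the ventricles (0.91 ± 0.27, adjusted p = 0.023) and lost its call with median centring (adjusted p = 0.078) and without atrial array 3, ventricular array 1 or ventricular array 3 (adjusted p = 0.081, 0.13 and 0.059), as well as without atrial array 2 (adjusted p = 0.050). Of 10 measured genes of the trabecular wall, the spongy inner layer of the ventricle, 3 were lower: Irx3, Cited1 and Slit2 (-0.61 ± 0.15), the last of these not without ventricular array 2 (adjusted p = 0.072).

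The Notch pathway acts between neighbouring cells. Of its 16 genes, 3 were higher and 1 lower, compared with 6.71% and 7.78% of all genes (median 0.08). The ligand gene Jag1 read 2251, 2132 and 2303 in the atria, against 752, 702 and 730.1 in the ventricles (1.59 ± 0.14, adjusted p = 1.0e-08), with groups that lay 3.01-fold apart. The lower genes numbered 2 under median centring and in the fits that left out atrial array 1 or ventricular array 2. In the BMP and TGF-beta pathway, 7 of 26 genes were higher and none lower (median 0.19). Bmp4 read 1016.5, 786 and 1002 in the atria, against 338, 443 and 273.5 in the ventricles (1.39 ± 0.26, adjusted p = 0.00048). Bmp5, a related ligand, read 1200.4, 951 and 1234 in the atria, against 571, 757 and 658.5 in the ventricles (0.75 ± 0.14), and Id4, of the Id family of BMP-responsive inhibitors, 650.5, 773 and 800.2 in the atria, against 431, 345 and 388 in the ventricles (0.90 ± 0.16). These 3 genes were called without any 1 array. The other 4 were Bmper, Ltbp1, Tgfb3 and Smad6. Bmper and Smad6 lost their call whichever of the 6 arrays was left out (adjusted p between 0.056 and 0.14, and between 0.079 and 0.12). The list's count was at most 5 in those fits. It was 4 without atrial array 1, atrial array 3 or ventricular array 2, 3 without ventricular array 1 and 4 with median centring.

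Wnt genes had calls both ways, with 6 of 20 higher and 3 lower (median 0.34). The receptor gene Fzd7 read 1454, 1291 and 1849 in the atria, against 305, 256.5 and 324 in the ventricles (2.30 ± 0.19, adjusted p = 2.6e-09), and its groups were far apart. Axin2, a feedback inhibitor that Wnt signals induce, read 428, 462 and 561 in the atria, against 185, 234 and 201 in the ventricles (1.16 ± 0.21, adjusted p = 0.00030), and Rspo1, a ligand that enhances Wnt signals, 520.4, 555.5 and 486 in the atria, against 239, 331.5 and 279 in the ventricles (0.85 ± 0.18). Wnt2, a ligand of the venous pole and lung field in the mouse, read 286, 135 and 557 in the atria, against 91.4, 69.9 and 93.9 in the ventricles. Its highest value lay on atrial array 3, and without that array the difference of 1.55 ± 0.41 lost its call (adjusted p = 0.12), as it did without ventricular array 2 (adjusted p = 0.052). Ror1, a receptor of noncanonical Wnt signals, was lower, with 476, 390.1 and 675 in the atria, against 1147, 982 and 1031.5 in the ventricles (-1.04 ± 0.22, adjusted p = 0.0020). Without atrial array 2 the lower genes numbered 1.

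Guidance, retinoid and hedgehog genes were measured as well. Of 21 Slit, semaphorin and ephrin genes, 4 were higher and 1 lower, compared with 6.71% and 7.78% of all genes (median 0.19). Sema3d, a secreted semaphorin of the mesothelium, read 1161, 954 and 976 in the atria, against 494, 561 and 581 in the ventricles (0.90 ± 0.21, adjusted p = 0.0037). The lower gene, Slit2, went the other way from Slit3; the lower genes numbered 2 without atrial array 3, 0 without ventricular array 2 and 3 with median centring. Of 13 measured genes of retinoid synthesis, binding and receptors, 5 were higher and 1 lower (median 0.56). Aldh1a2, the main enzyme of embryonic retinoic acid synthesis, read 1957, 1984 and 1973 in the atria, against 758, 860.5 and 789 in the ventricles. The 3 atrial values were nearly equal, and the difference was 1.28 ± 0.18 (adjusted p = 1.0e-05). Aldh1a1, a second such enzyme, read 206, 370.5 and 328 in the atria, against 106, 58.5 and 23.1 in the ventricles (2.11 ± 0.38). Rarb, a receptor gene that retinoic acid induces, read 1007, 896 and 954 in the atria, against 573, 711 and 658 in the ventricles (0.55 ± 0.12), and lost its call with median centring (adjusted p = 0.055), where 2 of the list stayed higher; the count was 3 without atrial array 3. The lower gene was Rbp7, and it was not called without any 1 of 5 arrays (atrial 1, 2 or 3, ventricular 1 or 3; adjusted p between 0.057 and 0.12).

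Of 8 measured hedgehog and dorsal mesenchyme genes, 3 were higher, Gli2, Osr1 and Smo (median 0.82). Gli2, a transducer of hedgehog signals, read 392, 549.8 and 654.5 in the atria, against 255, 233 and 192 in the ventricles (1.15 ± 0.25, adjusted p = 0.0021). The pathway's target genes were high on atrial array 3 in particular: Foxf1, a forkhead factor of mesenchyme beside lung and gut, read 178, 266 and 1498 in the atria, against 251, 158 and 201 in the ventricles, and the receptor gene Ptch1 801, 799.8 and 1981 in the atria, against 973, 931 and 877 in the ventricles. The Ptch1 groups overlapped, and neither gene passed. Without atrial array 3, 1 gene was higher in place of 3. The foregut and lung markers moved with these values, at a list level (mean log2 minus the mean over 36 arrays) of -0.37, 0.16 and 1.73 on the 3 atrial arrays, against -0.17, -0.49 and 0.15 on the ventricular ones. Over the 10 measured markers the summed intensity was 1747.4, 2700.2 and 6530.5 in the atria, against 1918.3, 1731.3 and 2693.4 in the ventricles. Their part in the hedgehog, Wnt2, Adh1 and Mylk values was not tested.

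Growth factor genes were split by ligand. Of 27 measured, 4 were higher and 6 lower (median 0.03). Igf1, which encodes an insulin-like growth factor, read 3079.9, 3369.5 and 3815 in the atria, against 2253, 2098 and 2173 in the ventricles (0.64 ± 0.14, adjusted p = 0.0025) and was not called with median centring (adjusted p = 0.053). Its binding protein gene Igfbp2 read 3108.5, 2709 and 3115 in the atria, against 732, 1911 and 1305 in the ventricles (1.27 ± 0.30), with no call without ventricular array 1 (adjusted p = 0.071). On the ventricular side, Vegfa, the main vascular growth factor, read 957, 1201 and 1113 in the atria, against 2689, 2201 and 2306 in the ventricles (-1.13 ± 0.18, adjusted p = 0.00011). Vegfc, the lymphatic one, read 529, 566 and 573 in the atria, against 798, 850.3 and 891 in the ventricles (-0.59 ± 0.15), and Fgf1 359, 371 and 338 in the atria, against 678, 565 and 630.3 in the ventricles (-0.78 ± 0.17). Angpt1 and Vegfa thus lay on opposite sides. The lower genes numbered 3 without ventricular array 1, and the higher ones 2 with median centring.

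Markers of the epicardium, the mesothelial cover of the heart, were mostly higher in the atrium. All 14 of the list were measured, and 10 were higher and none lower (median 1.12). Upk3b, a uroplakin of mesothelial cells, read 5159, 4339.5 and 4095 in the atria, against 883, 1661 and 1174 in the ventricles (1.90 ± 0.24, adjusted p = 4.4e-06). Gpm6a, a membrane glycoprotein, read 1481, 2097 and 1358.5 in the atria, against 528, 437 and 428 in the ventricles (1.77 ± 0.24), and Lrrn4, a leucine-rich repeat protein of mesothelium, 1887, 1839.7 and 1465 in the atria, against 437, 656 and 542 in the ventricles (1.65 ± 0.22). In all 3 genes each atrial value lay well above each ventricular one. Bnc1 (1.49 ± 0.26), Upk1b (1.25 ± 0.19), Aldh1a2 and Aldh1a1 were called in every fit that left out 1 array, and so was Tcf21, a factor of epicardium-derived fibroblasts (0.70 ± 0.14). Wt1, a zinc finger factor of the same cells, read 970.1, 866 and 712 in the atria, against 533, 619 and 613 in the ventricles (0.51 ± 0.16, adjusted p = 0.030). It was not called with median centring (adjusted p = 0.21) or without any 1 of 5 arrays (atrial 1 or 2, ventricular 1, 2 or 3; adjusted p between 0.051 and 0.14). In a bulk sample, more cells of a type and more RNA per cell cannot be told apart. The summed intensity of the list was 22823, 21124 and 19795 in the atria, against 9179.5, 10996 and 10618 in the ventricles.

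Connective tissue genes had calls in both directions. Of 29 elastic fibre and matrix genes, 7 were higher and none lower (median 0.29). Fbln2, a fibulin of the matrix, read 3053, 3249 and 2571 in the atria, against 1397, 1505 and 1239.7 in the ventricles (1.09 ± 0.21, adjusted p = 0.00082), and Fmod, a small proteoglycan, 838, 939.8 and 905 in the atria, against 264, 422 and 451 in the ventricles (1.24 ± 0.24). Lox, which crosslinks elastin and collagen, read 1247, 2062 and 2457 in the atria, against 975, 671 and 846 in the ventricles (1.15 ± 0.29, adjusted p = 0.0071), with no call without atrial array 3 (adjusted p = 0.056). The count was 4 without atrial array 2 or 3 and 3 with median centring. Of 19 genes of the endocardial cushions and valves, 3 were higher and 2 lower, compared with 6.71% and 7.78% of all genes (median 0.15). Versican, Vcan, the hyaluronan-binding proteoglycan of cardiac jelly, was lower, with 1892, 1552.5 and 2452 in the atria, against 4371, 4919 and 3739 in the ventricles (-1.15 ± 0.20, adjusted p = 0.00027). Zeb2, a factor of epithelial to mesenchymal transition, was higher, with 668, 740.4 and 1040.0 in the atria, against 500.4, 474 and 497 in the ventricles (0.69 ± 0.15, adjusted p = 0.0021). Both differences were also called without any 1 array. With median centring, or when array 1 of either chamber was left out, 1 cushion gene was higher, and 1 was lower when array 3 of either chamber was left out.

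Endothelial genes had calls in both directions. Of 24, 3 were higher, 6 lower and 15 not called (median -0.11). Vwf, the von Willebrand factor of vessels and endocardium, read 1103, 1276 and 1020.2 in the atria, against 526, 334 and 385.5 in the ventricles (1.43 ± 0.20, adjusted p = 1.5e-05), and Npr3, a natriuretic peptide receptor of endocardium, 4192, 4566 and 3929 in the atria, against 2492, 3243.5 and 2514 in the ventricles (0.63 ± 0.15). Tek, the receptor for the Angpt1 ligand, read 2938, 2877 and 2780.3 in the atria, against 1868, 2238 and 2119.5 in the ventricles (0.47 ± 0.12) and was not called without ventricular array 1 (adjusted p = 0.068) or with median centring (adjusted p = 0.14). Lower were the SoxF factor genes Sox18, with 645, 636 and 903 in the atria, against 1745, 1368 and 1494 in the ventricles (-1.07 ± 0.26), and Sox17, with 72.0, 155.5 and 297 in the atria, against 923, 354 and 572 in the ventricles (-1.80 ± 0.47). Sox17 was not called when either atrial or ventricular array 1 was left out (adjusted p = 0.086 and 0.078). Fabp4, a fatty acid binding protein of capillary endothelium, read 427, 1261 and 609 in the atria, against 7517, 2894 and 5941 in the ventricles (-2.84 ± 0.76, adjusted p = 0.013), with no call when either of the same 2 arrays was left out (adjusted p = 0.062 and 0.065). Icam2 (-0.54 ± 0.12) and Ets1 (-0.50 ± 0.11) were lower in every fit that left out 1 array; the mean of its probe sets left Ets1 uncalled (adjusted p = 0.30). Without ventricular array 1, 3 genes of the list were lower.

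Some blood and immune markers were called, and the differences of all 9 measured erythroid genes were positive. Alas2, the erythroid enzyme of haem synthesis, read 8767, 9678 and 5711 in the atria, against 2832, 2834 and 1522 in the ventricles (1.76 ± 0.49, adjusted p = 0.017), and was the single call among 9 erythroid genes (median 1.56). It was not called without atrial array 1 or 2 or ventricular array 3 (adjusted p = 0.056, 0.072 and 0.096). The embryonic globin gene Hbb-bh1 varied widely within both chambers, with 7820.4, 638 and 3191 in the atria, against 39.4, 3526 and 1151 in the ventricles, and its groups overlapped. The erythroid genes summed to 47683, 38771 and 36498 in the atria, against 18141, 33985.5 and 25409.7 in the ventricles. Their part in the other differences was not tested. Of 14 genes of macrophages and leukocytes, 3 had higher levels and 1 a lower level in the atrium (median 0.35). Csf1r, the receptor that marks macrophages, read 2438, 3104.5 and 3262 in the atria, against 1527, 1553 and 2026 in the ventricles (0.78 ± 0.21), while Lyz2, a lysozyme, read 461, 708 and 609 in the atria, against 905, 1495 and 1480.4 in the ventricles (-1.09 ± 0.28). The higher genes numbered 1 without atrial array 3, 0 without ventricular array 1 and 0 with median centring, and the lower ones 0 without atrial array 1, ventricular array 2 or ventricular array 3.

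Markers of neighbouring organs did not pass but were uneven between arrays, as the plot of list levels shows. Alb, the liver's serum albumin, read 135, 711 and 237 in the atria, against 101, 87.4 and 316 in the ventricles, and Afp, the fetal liver protein, 106, 822 and 462 in the atria, against 25.5, 71.2 and 2134 in the ventricles. Atrial array 2 and ventricular array 3 were the high ones. Of 7 measured liver genes, 9 neural genes, 10 foregut and lung genes and 1 thymus gene, none was called, and of 6 smooth muscle genes 1 was. That gene, Mylk, the myosin light chain kinase, read 846, 609 and 2178 in the atria, against 513, 442.5 and 393.5 in the ventricles (1.19 ± 0.30), and without atrial array 3 it was not called (adjusted p = 0.12). Of 7 skeletal muscle genes, 2 were higher and 0 lower, with 5 positive and 2 negative differences. Ckm read 859, 7219 and 1785 in the atria, against 11546, 3951 and 6977 in the ventricles, with overlapping groups and no call. Actn3, the alpha-actinin of fast muscle fibres, read 296, 229 and 250.1 in the atria, against 38.5, 104 and 64.6 in the ventricles (1.74 ± 0.36, adjusted p = 0.0015). Neither of the muscle-determining factor genes passed. Myod1 read 126, 159 and 109 in the atria, against 96.3, 104 and 131 in the ventricles. Myog read 120.0, 171 and 94.4 in the atria, against 89.7, 74.0 and 104 in the ventricles. The other call of the list, the heavy chain gene Myh8, was not called without atrial array 2 or 3 or ventricular array 2 (adjusted p = 0.19, 0.057 and 0.31).

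**Figure D3:**
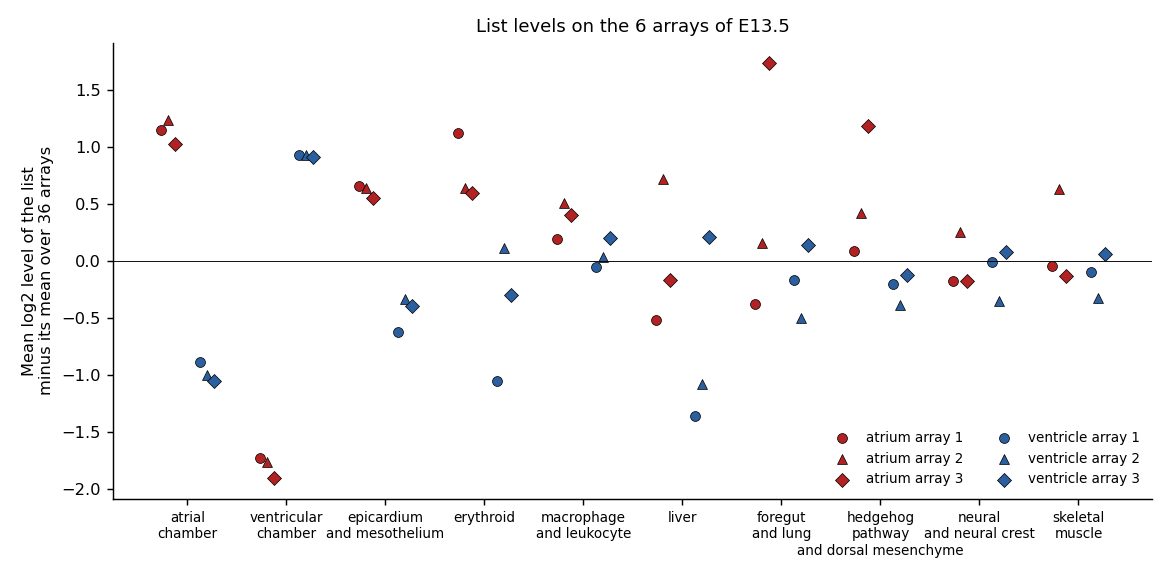
Level of 10 marker lists on each of the 6 arrays of E13.5, as the mean log2 value of the list's measured genes minus its mean over all 36 arrays (vertical axis). Red symbols are atrial arrays and blue symbols ventricular arrays, with a shape per array number; atrial array 3 reads 1.73 for the foregut and lung list, above the other 5 arrays.

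Genes of energy metabolism were lower in the atrium or did not pass, and no measured member of the 3 lists of fatty acid, glucose and mitochondrial genes was called higher. Of 24 genes of fatty acid uptake and oxidation, 12 were lower (median -0.41). Fabp3, the fatty acid binding protein of heart muscle, read 4682, 4584 and 3991 in the atria, against 11239.9, 8809.9 and 9483.5 in the ventricles (-1.15 ± 0.23, adjusted p = 0.00088). Eci1, an enoyl-CoA isomerase of the oxidation of unsaturated fatty acids, read 1592, 1464 and 1333 in the atria, against 3766, 3200.1 and 3248 in the ventricles (-1.21 ± 0.16, adjusted p = 6.2e-06). Both were separate on all arrays, as were Acadvl, the very long chain dehydrogenase (-0.83 ± 0.16), Echs1 (-0.57 ± 0.12) and the coactivator of mitochondrial genes Ppargc1a (-0.81 ± 0.13). The list's count was 7 without atrial array 3 and 6 without ventricular array 1.

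Glucose genes followed the same direction, with 12 of 20 lower (median -0.42). Slc16a3, a lactate exporter, read 1160.1, 736 and 1049.8 in the atria, against 2440.3, 3883 and 2805.5 in the ventricles (-1.61 ± 0.25, adjusted p = 6.9e-05). The hexokinase gene Hk2 read 1088, 983 and 1073 in the atria, against 1944, 2152 and 2010.4 in the ventricles (-0.95 ± 0.11, adjusted p = 1.7e-06), and the phosphofructokinase gene Pfkp 2149, 2059.9 and 1647 in the atria, against 3966, 3930.0 and 4081 in the ventricles (-1.04 ± 0.12, adjusted p = 1.1e-06). In all 3 the ventricular values lay well above the atrial ones. Aldoc (-1.23 ± 0.25), Pdk1, which diverts pyruvate from oxidation (-0.61 ± 0.13), Pkm (-0.44 ± 0.10) and Pgam1 (-0.44 ± 0.09) were lower in every fit that left out 1 array, and between 8 and 11 members were lower in those fits.

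Of 38 genes of oxidative phosphorylation and the tricarboxylic acid (TCA) cycle, 16 were lower, by small amounts (median -0.31). Ogdh, a TCA cycle dehydrogenase, read 2999, 2939 and 2827 in the atria, against 4311, 3837 and 3655.5 in the ventricles (-0.42 ± 0.10, adjusted p = 0.0043), and it was the member called without any 1 array. Uqcrc1, of complex III, read 6651, 6102 and 6635 in the atria, against 10004, 8917 and 8303 in the ventricles (-0.49 ± 0.12), and Ndufs1, of complex I, 4157, 4190.0 and 3982 in the atria, against 5869, 5058 and 5143 in the ventricles (-0.38 ± 0.10). Both lost their call without ventricular array 1 (adjusted p = 0.065 and 0.078), the array with the highest ventricular value of each. The list's count was 9 without atrial array 1, 9 without atrial array 2, 4 without atrial array 3, 1 without ventricular array 1 and 10 without ventricular array 3. Quantile normalization and median centring each gave 19.

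**Figure D4:**
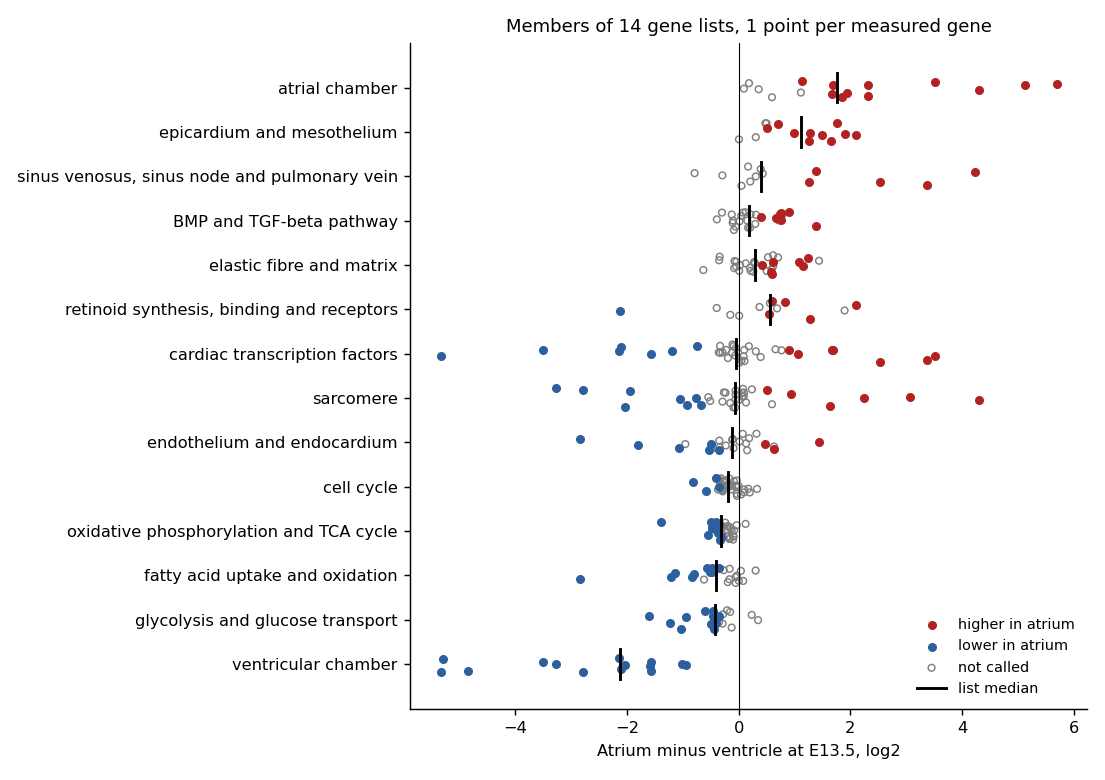
Atrium minus ventricle at E13.5 (horizontal axis, log2) for the measured members of 14 gene lists, with 1 point per gene and small vertical scatter for display. Red points were called higher in the atrium, blue points lower, open points were not called, and the bar is the list median, between -2.12 for the ventricular chamber list and 1.77 for the atrial chamber list.

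The called hypoxia response genes were mostly lower in the atrium. Of 14, 5 were lower and 1 higher (median -0.41). Bnip3, a mitophagy receptor induced by low oxygen, read 2600.4, 2928 and 2633 in the atria, against 5543, 6456 and 6017 in the ventricles (-1.14 ± 0.14, adjusted p = 3.2e-06). Ankrd37, an ankyrin repeat protein that low oxygen induces, read 118.5, 187 and 182 in the atria, against 481, 344 and 377 in the ventricles (-1.23 ± 0.25). With Vegfa and Pdk1, these were called without any 1 array. Adm, which encodes the vessel-dilating peptide adrenomedullin and is also induced by low oxygen, was the exception, with 461, 653 and 369 in the atria, against 264, 195 and 224 in the ventricles (1.04 ± 0.23, adjusted p = 0.0032). Among 35 genes of the cell cycle, 4 were lower in the atrium and none was higher, compared with 7.78% and 6.71% of all genes (median -0.18). Without atrial array 2 the lower ones numbered 1. Cdkn1a, the cell cycle inhibitor p21, read 371, 331 and 357 in the atria, against 617, 658 and 621.5 in the ventricles (-0.81 ± 0.18, adjusted p = 0.0024), and was the most changed of the 4. Of 17 immediate early and heat shock genes, Jun was lower, with 1199.6, 1402 and 1323 in the atria, against 2339, 2178 and 2165 in the ventricles (-0.76 ± 0.20), and not without atrial array 1 (adjusted p = 0.050), while without atrial array 2, and with median centring, the lower genes numbered 3. None of 4 sex-linked genes was called.

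The leading increases at E13.5 were mostly called at the other ages too, and the leading decreases at all of them but E14.5. Of the 20 largest increases, 19 were also called higher at E12.5 and 16 at E14.5, while 20 were so at E16.5, 18 at E18.5 and 15 at all of these ages. Of the 20 largest decreases, 15 were also called lower at E12.5 and 3 at E14.5, while 19 were so at E16.5 and 17 at E18.5. The genes were ranked by E13.5, so their differences there are partly large by choice. Of all 871 genes higher at E13.5, 36.7% were called higher at E12.5 and 40.9% at E14.5, followed by 66.0% at E16.5 and 60.8% at E18.5, against 5.19%, 5.05%, 10.9% and 12.9% of all genes tested. Of the 1010 lower genes, 44.2%, 16.04%, 57.1% and 58.8% were called lower at those ages, against 6.07%, 2.39%, 8.72% and 9.81% of all genes. In all, 173 of the higher genes and 105 of the lower genes were called at all 4 other ages, and 188 and 196 at none.

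Of the 5 ages with separate chambers, the atria of E13.5 had the lowest mean level of Irx4 and of Mb. Irx4 read 32.0, 433 and 14.3 on the atrial arrays of E12.5, 26.3, 49.2 and 17.3 at E13.5 and 1281, 792.5 and 137 at E14.5. It then read 18.0, 356 and 15.0 at E16.5 and 492, 48.5 and 22.7 at E18.5. At every age but E13.5 at least 1 atrial array read far above all 3 of E13.5, while the ventricular arrays of all 5 ages read between 1485 and 1964.5. Myoglobin showed the same layout: Mb read 272, 389 and 311 in the atria of E13.5, and its highest atrial value was 996.9 at E12.5 and 5791 at E14.5, then 3534 at E16.5 and 8823.5 at E18.5. The difference for Mb was -3.08, -4.85, -2.14, -3.72 and -2.51 from E12.5 to E18.5. For Myh7 the 5 values were -2.06, -3.28, -0.96, -1.72 and -1.48. Isl1 differed by 2.38, 2.53, 3.28, 1.63 and 1.29, and Shox2 by 3.82, 3.36, 3.08, 3.53 and 2.78, at the same ages. Dnah1 was higher in the atrium at E12.5 (2.45), E13.5 (2.47) and E16.5 (1.56). At E14.5 it read 20.6, 185 and 170.5 in the atria, against 159.9, 43.1 and 38.1 in the ventricles, with overlapping groups and no call (0.43). It read 23.5, 27.2 and 30.4 in the atria of E18.5, against 24.9, 8.0 and 26.5 in the ventricles, and was not called (0.30).

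**Figure D5:**
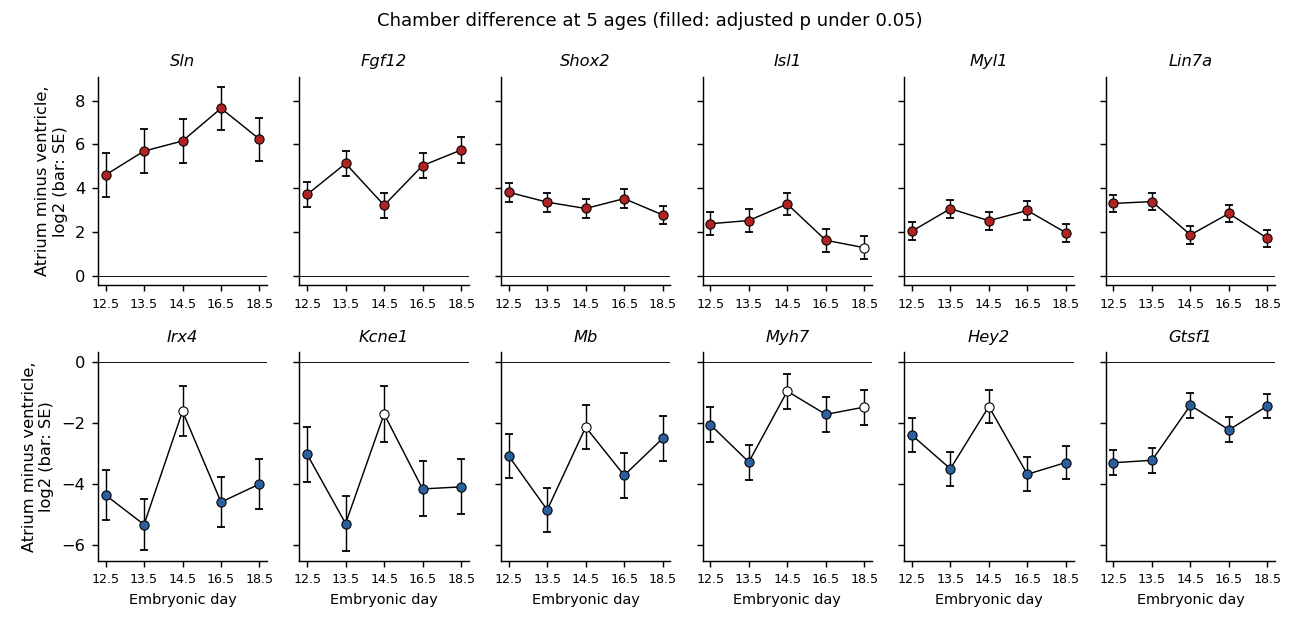
Atrium minus ventricle (vertical axis, log2, with the SE of the fit as bars) at 5 embryonic days (horizontal axis) for 6 genes higher and 6 genes lower in the atrium at E13.5. Filled points were called at that age and open points were not; the differences of Irx4, Kcne1, Mb and Hey2 are smallest in size at E14.5.

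Whether the chamber difference itself changed with age was tested in the same fit. The difference at E13.5 minus the mean of the other 4 ages called 0 of 27256 probe sets with limma (lowest adjusted p = 0.080), with 3004 at an unadjusted p under 0.05 (11.0%). Against E12.5 alone 0 were called (lowest adjusted p = 0.52) with 2326 at an unadjusted p under 0.05 (8.53%), and against E14.5 alone 0 (lowest adjusted p = 0.13) with 3384 (12.4%). Against E18.5, a comparison added to the planned ones, 154 probe sets were called (0.565%), with 3440 at an unadjusted p under 0.05 (12.6%). A count against E16.5, and counts against E18.5 under other settings, are not given here. Array weights gave 41, 261 and 0 calls in the comparisons with the mean, E12.5 and E14.5, and leaving out 1 array gave up to 6, 59 and 6, the 59 without atrial array 3 of E12.5. The smaller differences of ventricular genes at E14.5 were thus not called as different from those at E13.5.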

How the data were processed

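Total RNA of 36 heart samples of C57BL/6 embryos, per the labels, was hybridised to Affymetrix mouse arrays with 1 value per probe set. The deposited values are intensities on a linear scale. The 2% trimmed mean, computed from them here, was 500.00 on each array. The summary method, its software and the scan days are not given in the sources used here, so that no batch could be set against the chambers. Genes were named through the platform annotation provided with the data: 34945 probe sets carry 1 symbol, 932 several and 9160 none, after 64 control probe sets were left out.

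From the 45037 remaining probe sets, those that exceeded 171.8, the median over the whole table, on 3 or more arrays were kept. On log2(intensity + 17), limma 3.58.1 in R 4.3.3 fitted 12 group means to the 36 arrays, with empirical Bayes moderation and an intensity trend, giving two-sided p-values adjusted by Benjamini-Hochberg over 27256 probe sets. All adjusted p-values in the text are limma's. Tables were made with Python 3.11.15, pandas 2.3.3 and numpy 2.4.6. Where several probe sets name 1 gene, the brightest on average over the 36 arrays stands for it. In simulated data with the same design, 98 of 100 probe sets shifted by 2 log2 units, 75 of 100 shifted by 1 and 4 of 27056 unshifted ones were called. The simulated noise was independent between probe sets and arrays, with no shared array effect, scaling offset or uneven tissue content. These rates therefore need not hold for the real arrays. Samples were grouped by title and source. The title's day was used for E16.5, where the description names another day.

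The members, gene lists and tests were chosen with earlier results of these data known, so that list counts are descriptions. The rule for named genes took the 20 largest called differences in each direction whose groups do not overlap, up to 5 called members of each list, all measured members of the 3 lists of atrial, ventricular and sinus venosus genes, and genes called for a change with age. Some genes that the rule names are left out, and further list members were named as examples after their values were seen. The alternatives changed the scaling (quantile normalization or median centring), the added constant (1 or 68), the filter (none, or 582.9, the 75th percentile), the fit (the 6 arrays alone, without a trend, with array weights, or blocked by replicate number) or the gene summary (averaging probe sets), and each array was left out in turn. Promoter windows came from the RefSeq table for GRCm38.p6.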

Additional observations from a re-analysis of the deposited data

Results flagged for a closer look

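Of the genes called at E13.5, 11 were also called at E18.5 in the opposite direction, with a difference between the 2 ages that itself passed the test. They were found by scanning all genes after their values were seen. Values below are the chamber difference (atrium minus ventricle, log2) at E13.5 minus that at E18.5, with limma's adjusted p.

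Clu, which encodes the secreted chaperone clusterin, read 1367, 1554 and 1467 in the atria of E13.5, against 2274, 2921 and 3097 in the ventricles. At E18.5 it read 4365, 4692 and 5491 in the atria, against 2053, 1472 and 2073 in the ventricles, so that the groups lay apart in opposite ways at the 2 ages, and the change was -2.28 (adjusted p = 0.00034). For Cd44, a hyaluronan receptor, it was -1.62 (adjusted p = 3.8e-05), with 1623, 1544 and 1515 in the atria of E13.5, against 1753, 2565 and 2192 in the ventricles, and 2091, 2664 and 2479.5 in the atria of E18.5, against 1012, 1058 and 1106 in the ventricles. Cyp20a1, a cytochrome P450 family member, changed by -0.87 (adjusted p = 0.00011). Lyz1, a lysozyme gene, changed by -2.80 (adjusted p = 0.0028), with 1 atrial array of E18.5 at 3796 and the other 2 at 822 and 976. At E13.5 it was lower in the atrium, as was the lysozyme gene Lyz2 given above. Whether its probe set also reads Lyz2 was not tested. The changes of Clu, Cd44, Cyp20a1 and Lyz1 passed in every one of 40 settings that were run.

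Cd9, a tetraspanin, changed by -1.47 (adjusted p = 0.0046), Nts, the neurotensin precursor, by -2.56 (adjusted p = 0.0090) and Hdc, the enzyme that makes histamine, by -3.21 (adjusted p = 0.0077), each losing the call in 1 setting. Ermp1 (-0.92, adjusted p = 0.026), Fam122b (-0.71, adjusted p = 0.039), Rarg, a retinoic acid receptor (1.54, adjusted p = 0.041), and Fam219aos (1.34, adjusted p = 0.036) lost it in 9, 13, 16 and 9 settings. For 9 of the 11 the call at E13.5 was lost when at least 1 array was left out, while Lyz1 (highest adjusted p = 0.018) and Cd9 (0.032) kept theirs.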

How the results depend on the processing

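The count of probe sets called at E13.5, 3310 as reported, was within 1.5 times of that under quantile normalization, median centring, both pseudocounts, no filter, the strict filter, the 6 arrays alone and no intensity trend. Array weights raised it to 5044, with 2501 higher. Leaving out 1 array gave between 1986 and 2487 calls, with 969 to 1163 higher and 1017 to 1324 lower, the lowest of each without ventricular array 1. Median centring left 753 higher. The strict filter, which tests fewer probe sets, gave 422 with a difference of 2-fold or more in place of 741. With the replicate number as a block (replicate block) the calls numbered 1640, with 812 higher and 828 lower. Deviations from the group means correlated at -0.261, -0.335 and 0.021 between atrial and ventricular arrays of the same number at E13.5. Between arrays of different numbers they correlated at -0.098 to 0.311. Each chamber has few arrays, and their deviations cancel out within it. These correlations therefore cannot decide whether arrays of the same number came from the same hearts or litters. For the difference at E13.5 minus the mean of the other ages, with 0 calls as reported, quantile normalization gave 2, no filter 2, the strict filter 1, array weights 41 and leaving out 1 array 0 to 6. Against E12.5 these were 1 with quantile normalization, 1 with no filter, 261 with array weights and 0 to 59 without 1 array. Against E14.5 they were 1 without the intensity trend and 0 to 6 without 1 array. The cause of these moves was not tested.

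Of 201 called genes covered by the lists and the naming rule, none changed direction under any alternative. Calls were lost for 61 with the replicate block, 28 with median centring, 17 in the 6 arrays alone, 16 with the mean of probe sets, 15 without a filter, 10 with quantile normalization, 9 without the intensity trend, 2 with a pseudocount of 68 and 0 with array weights or a pseudocount of 1. The strict filter left 182 of them and 1 lost its call. Without ventricular array 1, 61 lost their call, and without any other single array of E13.5 between 34 and 54. For genes near the bottom or the top of the intensity scale, size is limited by the scale.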
